A study of Homo sapiens with 38 samples.

Results

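The genes described here went up early in A549 cells given interleukin 1 beta (IL1B) and had kept at least 0.5 of that early rise 8 h later. They were chosen on the group means of the control arrays: the log2 level at 2 h had to exceed that at 0 h by 1 or more, and the excess at 10 h had to be at least 0.5 of the excess at 2 h. Chemokines, interleukins, NF-kB subunits and inhibitors, TNF family genes, solute carriers and a few further families were then dropped by the start of their symbols. This left 112 of 11893 genes that a probe set with 1 symbol stood for. Before any symbol was dropped, 272 genes met the 2 h criterion and 153 of them the 10 h criterion as well, so that 41 were dropped by symbol. A set of 102 genes that met the 2 h criterion but not the 10 h criterion, with the same symbols dropped, is called transient genes here and serves as the nearest comparison.

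A549 cells are a human line, grown from a lung adenocarcinoma, that keeps traits of alveolar epithelial cells. One arm received a pool of siRNAs (ON-TARGETplus SMARTpool) against ORMDL3, a protein of the endoplasmic reticulum that restrains the first enzyme of sphingolipid synthesis, and is called knockdown; the labels say no more of the other arm than control. All cells were kept without serum for 24 h after 48 h of silencing and then received IL1B at 1 ng/ml for 2, 4, 8 or 10 h, while the 0 h cells of both arms were untreated. The 38 arrays formed 10 groups of 4, except that knockdown 0 h lacked replicate 3 and control 8 h lacked replicate 4, leaving 3 each. No later hour had an untreated array, so time in culture cannot be told apart from IL1B. A single pool of siRNAs and a single tumour line limit what the arms stand for, and the labels do not say whether replicates were separate cultures.

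IL1B binds its receptor on the cell surface, which recruits the adaptor MYD88 and kinases of the IRAK family. TRAF6 then activates the kinases that release NF-kB and those that switch on AP-1, and both factors drive transcription within minutes to hours. Among the genes they switch on are inhibitors of the same pathway, growth factors, survival genes and matrix proteases, and in airway epithelium such genes are known for their part in inflammation and repair.

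The promoters of 5 members are shown because they hold the letters of an NF-kB or an AP-1 motif and belong to genes whose course or difference between the arms is described further on. Each is a RefSeq stretch of 300 bases that ends 50 bases into the gene, in GRCh38.p14, read 5′ to 3′ along the gene, with the motif match in capitals.
SGPP2: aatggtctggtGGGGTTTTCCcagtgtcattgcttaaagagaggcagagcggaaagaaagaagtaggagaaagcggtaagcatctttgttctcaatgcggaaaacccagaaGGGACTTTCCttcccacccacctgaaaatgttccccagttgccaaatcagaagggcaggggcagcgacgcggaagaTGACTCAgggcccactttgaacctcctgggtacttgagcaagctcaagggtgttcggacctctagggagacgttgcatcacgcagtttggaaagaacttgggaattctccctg
IFIH1: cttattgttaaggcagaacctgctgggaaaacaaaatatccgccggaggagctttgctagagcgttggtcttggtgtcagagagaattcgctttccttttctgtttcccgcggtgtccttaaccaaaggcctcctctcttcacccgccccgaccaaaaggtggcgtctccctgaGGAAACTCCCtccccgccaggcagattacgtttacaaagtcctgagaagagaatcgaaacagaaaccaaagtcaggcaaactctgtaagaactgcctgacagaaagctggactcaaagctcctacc
DLL4: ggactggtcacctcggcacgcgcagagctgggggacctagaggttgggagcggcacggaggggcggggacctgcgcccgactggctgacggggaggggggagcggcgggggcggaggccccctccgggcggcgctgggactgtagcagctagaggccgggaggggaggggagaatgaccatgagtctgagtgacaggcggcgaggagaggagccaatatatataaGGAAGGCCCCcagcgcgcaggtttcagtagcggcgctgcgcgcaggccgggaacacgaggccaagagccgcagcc
SPHK1: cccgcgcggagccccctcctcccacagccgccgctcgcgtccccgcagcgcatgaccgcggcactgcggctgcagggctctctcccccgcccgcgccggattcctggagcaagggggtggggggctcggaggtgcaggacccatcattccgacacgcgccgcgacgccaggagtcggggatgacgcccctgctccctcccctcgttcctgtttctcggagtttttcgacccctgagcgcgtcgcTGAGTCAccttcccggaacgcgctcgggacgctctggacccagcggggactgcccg
MMP10: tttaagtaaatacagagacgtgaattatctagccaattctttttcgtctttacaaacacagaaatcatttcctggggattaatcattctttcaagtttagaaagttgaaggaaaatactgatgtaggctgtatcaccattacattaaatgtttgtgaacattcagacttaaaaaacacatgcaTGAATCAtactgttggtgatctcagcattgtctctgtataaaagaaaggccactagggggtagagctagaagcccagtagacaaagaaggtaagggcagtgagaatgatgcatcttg

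The stretches lie at chr2:222423738-222424037 on the plus strand for SGPP2, chr2:162318635-162318934 on the minus strand for IFIH1, chr15:40929090-40929389 on the plus strand for DLL4, chr17:76382954-76383253 on the plus strand for SPHK1 and chr11:102780579-102780878 on the minus strand for MMP10. The NF-kB motif searched was GGG, any 3 bases and TTCC, and the AP-1 motif TGANTCA, where N is any base. In SGPP2 the NF-kB letters begin at bases -239 and -139 from the start and the AP-1 letters at -63. IFIH1 (-76) and DLL4 (-25) hold the NF-kB letters on the opposite strand, and SPHK1 (-6) and MMP10 (-67) the AP-1 letters. Of the 112 members 85 had such a stretch in the table, and both strands were searched. The NF-kB letters were in 11 of them (12.9%), against 11.4% of transient genes, 7.64% of all measured genes and 6.52% of all 35116 promoters in the table. The AP-1 letters were in 10 (11.8%), against 2.53% of transient genes, 4.59% of measured genes and 7.71% of all promoters. Matches to the STAT letters TTCNNNGAA were in 9.41% of members, 6.33% of transient genes, 6.35% of measured genes and 7.66% of all promoters. The C/EBP letters TTNCNNAA were in 29.4% of members, 25.3% of transient genes and 25.1% of measured genes, but in 36.8% of all promoters. In 1 member promoter sites of 2 motifs shared bases. These matches describe letters in a window and were not tested.

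ORMDL3 lay between 5.00 and 5.57 in the knockdown arrays and between 6.78 and 7.77 in the control arrays, with no overlap. The epithelial keratins KRT7, KRT8 and KRT18 lay between 12.06 and 13.41 over all arrays, while the epithelial adhesion molecule EPCAM was dim at 6.10 to 7.45. Of the fixed leukocyte, fibroblast and endothelial markers most had no probe set with 1 symbol, PTPRC, CD3E, COL1A2 and PECAM1 among them. The leukocyte markers CD14, CD68 and CD79A lay at 7.07 to 8.05, 9.85 to 10.72 and 5.61 to 6.47. The fibroblast markers COL1A1 and THY1 lay at 6.38 to 7.21 and 5.44 to 7.03, and the endothelial CDH5 at 4.90 to 7.04. The part of these markers in the results was not tested. Members were not all bright: 31 of 112 had a knockdown 0 h mean under the lowest lower quartile of any array, 6.52, against 22.6% of all probe sets.

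In control arrays, which chose the members and therefore give a description only, the rise over 0 h had a median of 1.40 at 2 h, 1.74 at 4 h, 1.22 at 8 h and 1.20 at 10 h. All changes are on the log2 scale, on which 1 stands for 2-fold. The highest rises at 2 h were those of BCL2A1, a survival protein of the BCL2 family (3.62), and STAT5A, a transcription factor of cytokine receptors (3.47). Next came the secreted, insulin growth factor-like IGFL1 (3.14), G0S2, an inhibitor of fat breakdown (2.75), and the receptor-proximal, kinase-like IRAK2 (2.55). The mean level over all members was 7.51 ± 0.02 at 0 h, 9.05 ± 0.08 at 2 h, 9.36 ± 0.03 at 4 h, 8.91 ± 0.02 at 8 h and 8.85 ± 0.07 at 10 h (SD over arrays). For 73 members the highest control mean was at 4 h and for 25 at 2 h. Just inside the 2 h threshold stood C11orf96 (1.00), CASTOR1 (1.02), TLL1 (1.03) and GBP3 (1.03), and just outside ST3GAL4 (0.9975), ANO9 (0.9947), OPTN (0.9917) and RARRES1 (0.9904). At the 10 h threshold C2CD4A (a share of 0.5003), LIF (0.501), HELB (0.506) and SOX2 (0.514) were just inside, and STX11 (0.490), MFSD2A (0.482), RIMKLB (0.481) and MB21D2 (0.476) just outside.

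**Figure D1:**
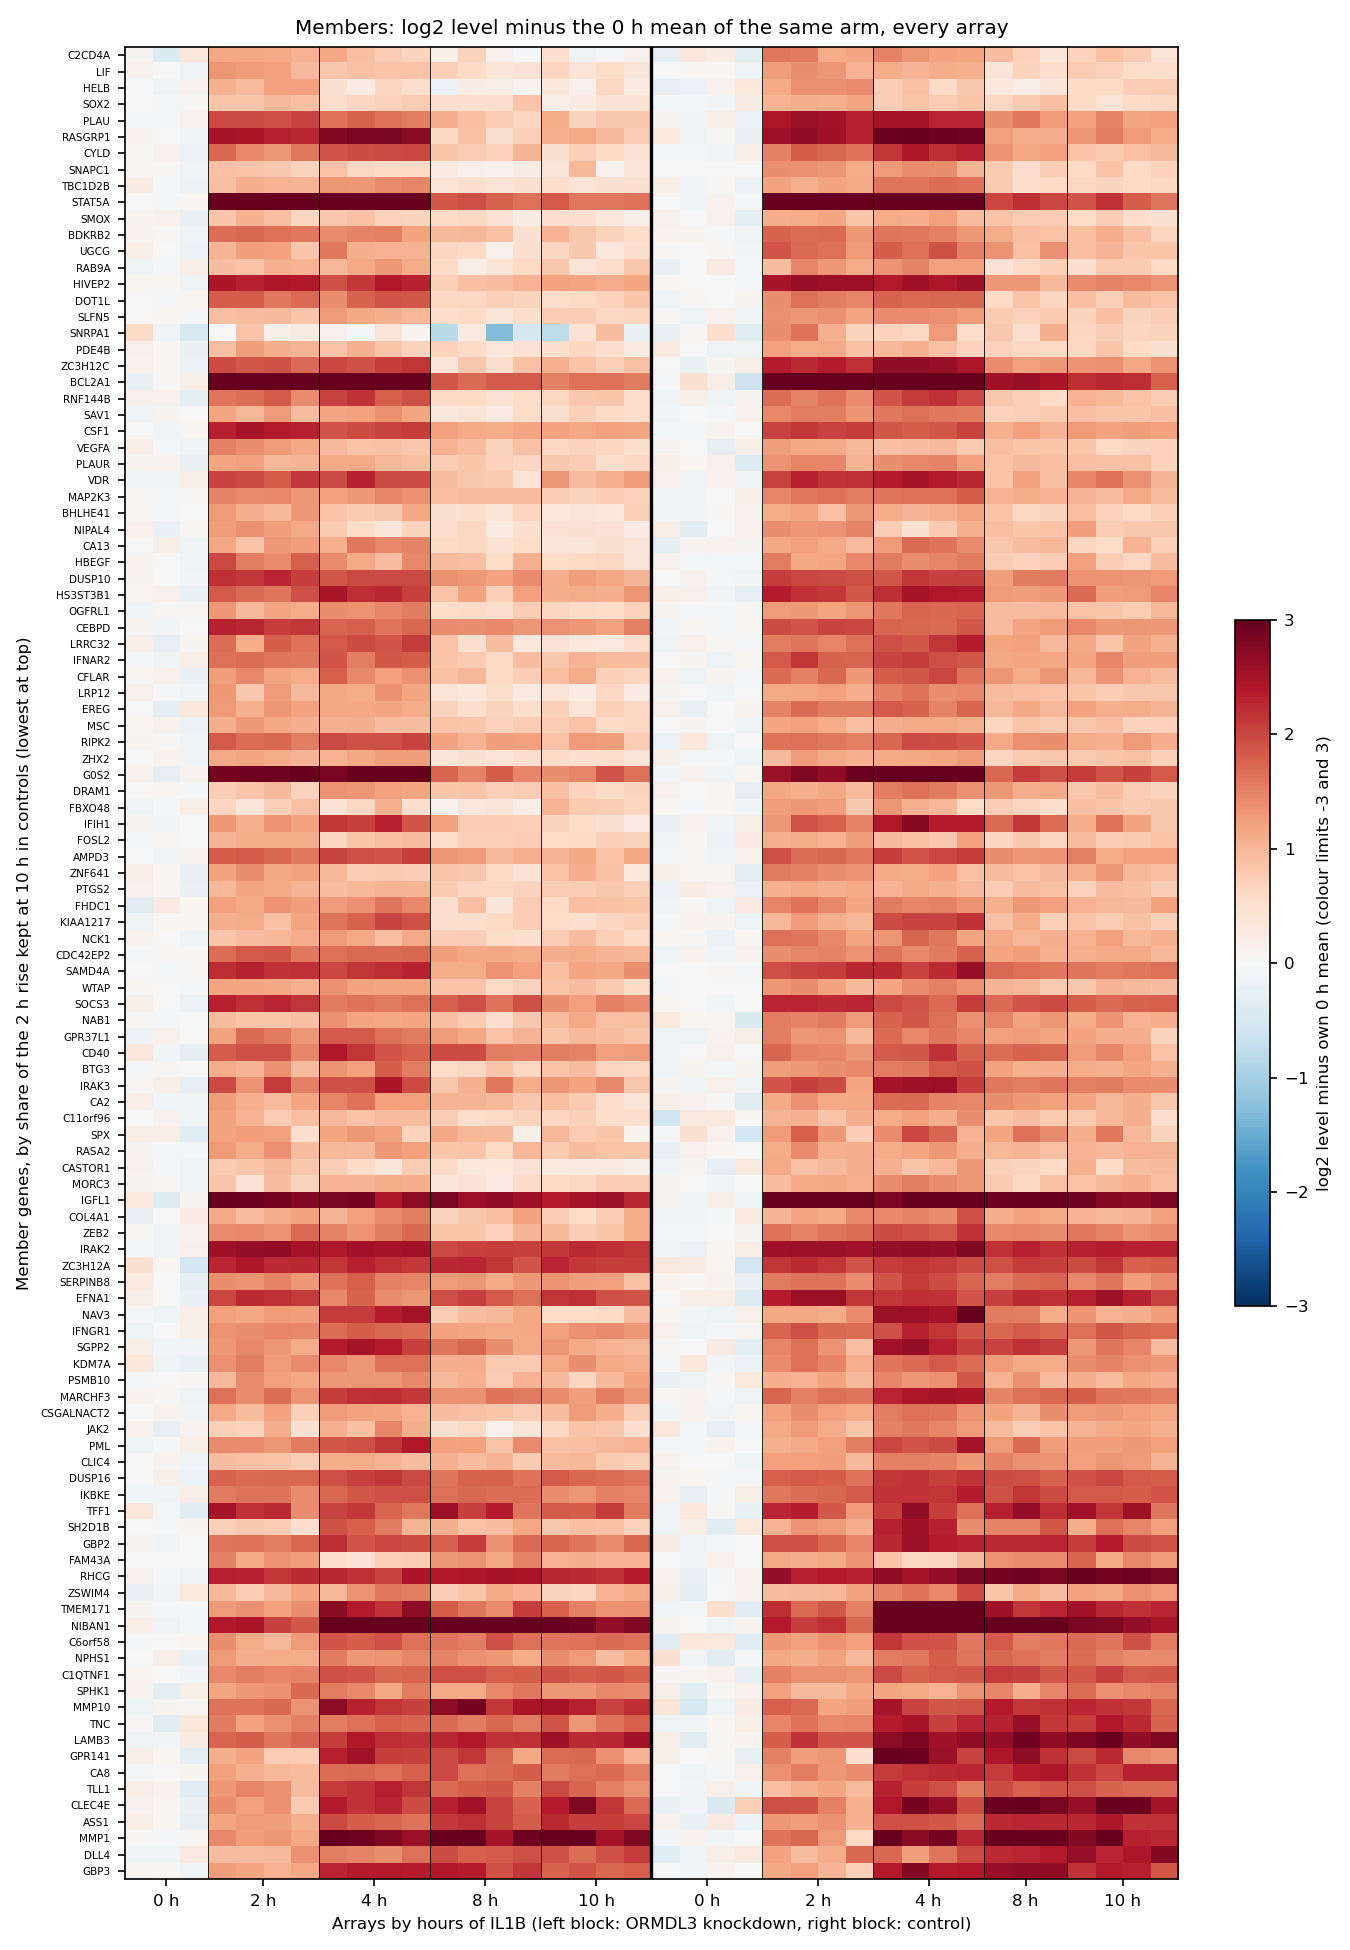
Log2 level of the 112 members in each of the 38 arrays, minus the 0 h mean of the same arm, with knockdown arrays left of control arrays, hours of IL1B from 0 to 10 within each arm and genes ordered by the share of the 2 h rise kept at 10 h in controls. Nearly every row is red from 2 h on in both arms, paler at 8 and 10 h in most of the upper rows and deepest at 4 to 10 h in the lowest rows; SNRPA1 in knockdown is mixed, with arrays on either side of its 0 h mean.

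Whether the same genes went up and stayed up was tested in the knockdown arrays, which had no part in the choice. At 2 h, 111 of the 112 members rose and 0 fell by limma's adjusted p, against 9.57% of all probe sets that rose and 13.8% that fell at that hour. At 4 h 111 rose and 0 fell (background 12.6% and 17.5%), at 8 h 107 rose and 0 fell (background 11.2% and 17.7%), and at 10 h 108 rose and 0 fell (background 11.6% and 13.8%). At an unadjusted p under 0.05 the members that fell numbered 0 at each of these hours. Called at all 4 hours were 105 members. Of the 102 transient genes 102, 96, 51 and 51 rose at 2, 4, 8 and 10 h, and 0, 0, 3 and 4 fell. The rise at 2 and 4 h was thus shared by both sets. The median change of the members was 1.25, 1.55, 0.90 and 0.89 at 2, 4, 8 and 10 h, while that of all probe sets was -0.05, -0.05, -0.04 and -0.02. A change of 1 or more was measured for 93, 94, 47 and 49 members at these hours. The 10 h criterion of the rule, at least 0.5 of the 2 h rise, was met in knockdown by 85 of 112 members and by 1 of 102 transient genes; the median share of the 2 h rise left at 10 h was 0.646 for members and 0.209 for transient genes. The split between members and transient genes had been made on the same measure in the control arrays. In RNA from whole wells, fewer responding cells and less transcript per cell cannot be told apart.

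The exceptions were few. SNRPA1, a component of the splicing machinery, did not pass the test at any hour. Its levels were 5.94, 5.27 and 4.91 at 0 h in knockdown, then 5.36, 6.23, 5.55 and 5.64 at 2 h and 4.62, 5.81, 6.32 and 5.18 at 10 h. These groups overlap, and the arrays within each differ by more than the group means do. At 8 h its change was -0.58 (adjusted p = 0.177), and without knockdown 8 h replicate 2 it was called lower (adjusted p = 0.0357). The others that missed the test at 8 h were the helicase HELB (0.09), SNAPC1, a subunit of the complex that transcribes small nuclear RNAs (0.19), C2CD4A (0.23) and FBXO48 (0.25). At 10 h they were C2CD4A (0.12), the arginine sensor CASTOR1 (0.25) and the peptide hormone SPX (0.68, adjusted p = 0.0646).

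Signalling and feedback genes of the IL1 and NF-kB pathway formed the first group by role. All 10 rose in knockdown at each of the 4 hours, with medians of 1.73, 2.00, 1.26 and 1.16. Since 111, 111, 107 and 108 of all 112 members rose at these hours, counts by role here and below repeat the whole set. They set no role apart. IRAK2, a kinase-like protein that carries the receptor signal on to TRAF6, had levels of 8.71, 8.64 and 8.89 at 0 h in knockdown, 11.29, 11.39, 11.41 and 11.24 at 2 h, and 10.87, 10.99, 10.96 and 10.88 at 10 h. Every IL1B array lay far above every 0 h array. Its rise was 2.58 ± 0.07 at 2 h and 2.18 ± 0.07 at 10 h. ZC3H12A, a ribonuclease that degrades cytokine mRNAs and so dampens inflammation, was at 10.27, 9.87 and 9.29 at 0 h in knockdown, 12.09, 12.24, 12.04 and 12.08 at 2 h and 12.10, 11.92, 11.88 and 11.91 at 10 h. Its rise was nearly level: it was 2.30 at 2 h, 2.19 at 4 h, 2.14 at 8 h and 2.15 at 10 h. DUSP16, a phosphatase of JNK and p38, rose by 1.73, 2.03, 1.69 and 1.71 at 2, 4, 8 and 10 h. IKBKE, a kinase of the interferon and NF-kB pathways, rose by 1.55 at 2 h and 1.43 at 10 h. CYLD, a deubiquitinase that restrains NF-kB, kept less, with 1.51 at 2 h and 0.56 at 10 h, as did DUSP10, a phosphatase of the same kind as DUSP16 (2.16 and 1.13). IRAK3, an inactive IRAK relative that blocks receptor signalling, was dim, at 4.19, 4.29 and 3.89 at 0 h and 6.05, 6.05, 6.57 and 6.07 at 4 h in knockdown.

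Of a list of 55 NF-kB feedback and IL1 pathway genes 50 were measured, 7 of them members. Among the 43 that were no members 27 rose and 2 fell at 2 h in knockdown (background 9.57% and 13.8%). At 4 h 32 rose and 1 fell (background 12.6% and 17.5%). At 8 h 22 rose and 0 fell (background 11.2% and 17.7%), and at 10 h 26 rose and 0 fell (background 11.6% and 13.8%). Some of the 43, TNFAIP3, TNIP1, RELB and NFKB2 among them, have symbols that were dropped by their start. The 43 are therefore no outside check on the members. Their median change was 0.63 at 2 h and 0.31 at 10 h. NFKBID, an atypical inhibitor of NF-kB whose symbol was among those dropped, rose by 4.15 at 2 h and by 1.45 at 10 h. TIFA, an adaptor of TRAF6, rose by 2.64 at 2 h and 0.40 at 10 h.

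Receptors for cytokines and microbial patterns, with their signalling proteins, made up 12 members, and all 12 rose at every hour in knockdown. STAT5A was at 7.23, 7.21 and 7.31 at 0 h in knockdown, 10.31, 10.61, 10.45 and 10.61 at 2 h and 9.09, 8.83, 8.83 and 8.88 at 10 h. It thus stood well above 0 h at 10 h, yet each 10 h array was below each 2 h array. RASGRP1, an activator of RAS, rose by 2.38 at 2 h, 2.78 at 4 h and 0.67 at 8 h. The interferon receptor chains IFNGR1 (1.41 at 2 h, 1.33 at 10 h) and IFNAR2 (1.62 and 0.94) and the costimulatory receptor CD40 (1.78 and 1.39) rose as well. SOCS3, which blocks JAK signalling, rose by 2.24 at 2 h and 1.38 at 10 h. IFIH1, a sensor of double-stranded RNA whose promoter is shown above, rose by 1.23 at 2 h, 2.09 at 4 h and 0.48 at 10 h.

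Of 9 survival and stress genes all rose at 2, 4 and 10 h and 8 at 8 h. BCL2A1 was at 5.46, 5.68 and 5.81 at 0 h in knockdown, 8.98, 8.88, 8.89 and 9.27 at 2 h and 7.15, 7.30, 7.29 and 7.20 at 10 h. The 3 groups did not overlap. NIBAN1, a stress-induced protein, had the highest change of any member at 4 h: it was at 5.88, 5.55 and 5.64 at 0 h in knockdown, 9.63, 9.32, 9.28 and 9.23 at 4 h and 8.67, 8.59, 8.34 and 8.46 at 10 h. The rise was 3.67 ± 0.14 at 4 h. CFLAR, an inhibitor of caspase 8, rose by 1.25 at 2 h and 0.85 at 10 h. The tumour suppressor PML, which builds nuclear bodies, rose by 1.42 at 2 h, 2.08 at 4 h and 0.95 at 10 h. The call of HELB at 10 h (0.34, adjusted p = 0.0338) was lost without knockdown 0 h replicate 1 or 2 or knockdown 10 h replicate 1 or 3, with an adjusted p of up to 0.16.

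Secreted and cell-surface ligands numbered 11, all called at 2, 4 and 8 h and 10 of them at 10 h. IGFL1 was at 6.03, 5.37 and 5.83 at 0 h in knockdown, 8.81, 8.70, 8.61 and 8.49 at 2 h and 8.09, 8.22, 8.33 and 8.01 at 10 h. Its IL1B arrays lay above all 0 h arrays at both hours. The macrophage growth factor CSF1 rose by 2.37 at 2 h and 1.19 at 10 h, and the EGF receptor ligand HBEGF by 1.68 and 0.54. The mucosal repair peptide TFF1 rose by 2.08 and 1.83 and the ephrin EFNA1, a ligand of EPH receptors, by 2.14 and 2.04. Among 17 transcription and chromatin genes 16 rose at 2 h, 16 at 4 h, 15 at 8 h and 16 at 10 h, led by the zinc finger protein HIVEP2 (2.39 at 2 h, 1.17 at 10 h), CEBPD (2.19 and 1.35), the vitamin D receptor VDR (1.98 and 1.16) and the histone methyltransferase DOT1L (1.73 and 0.66).

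Matrix and proteolysis genes were 9, and all rose at each hour in knockdown. MMP1, an interstitial collagenase, was at 5.16, 5.06 and 5.15 at 0 h in knockdown and at 6.58, 6.38, 6.44 and 6.28 at 2 h. By 4 h it was at 8.59, 8.05, 7.91 and 7.72, then 8.45, 8.22, 7.61 and 7.93 at 10 h. It climbed in 2 steps, with no overlap between 0 h, 2 h and 4 h. Its neighbour on chromosome 11, the stromelysin MMP10, with no protein-coding gene between them, rose by 1.58 at 2 h and 2.26 at 10 h. LAMB3, a laminin chain of the epithelial basement membrane, was at 7.54, 7.59 and 7.89 at 0 h in knockdown, 9.43, 9.49, 9.28 and 9.42 at 2 h and 10.22, 9.92, 9.93 and 10.19 at 10 h, so that its 10 h arrays all lay above its 2 h arrays. The adhesion protein TNC rose by 1.41 and 1.66, and the urokinase PLAU by 1.98 and 0.85. Of 18 enzymes and transporters 18 rose at 2, 4 and 8 h and 17 at 10 h. ASS1, which makes argininosuccinate for arginine synthesis, was at 9.45, 9.29 and 9.01 at 0 h in knockdown, 10.44, 10.53, 10.50 and 10.32 at 2 h and 11.48, 11.33, 11.33 and 11.26 at 10 h. G0S2, next to LAMB3 on chromosome 1, came down after 4 h. Its rise was 2.94 at 2 h, 3.04 at 4 h, 1.63 at 8 h and 1.59 at 10 h. The ammonium channel RHCG rose by 2.26 at both 2 h and 10 h. The interferon-inducible GTPases GBP2 (1.63 at 2 h, 1.62 at 10 h) and GBP3 (1.16 and 1.80), the immunoproteasome subunit PSMB10 (1.19 and 0.95) and SLFN5 (0.91 and 0.70) rose at all hours too.

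The 22 members left without a role group rose at 2 and 4 h without exception, 20 of them at 8 h and 21 at 10 h. SAMD4A, an RNA-binding repressor of translation, rose by 2.23 at 2 h and 1.16 at 10 h. NAV3, which binds microtubules, had its highest rise at 4 h (2.26, against 1.23 at 2 h and 0.66 at 10 h), as had the membrane protein TMEM171 (2.48, against 1.31 and 1.51) and the orphan receptor GPR141 (2.24, against 0.96 and 1.46). The RING ubiquitin ligase MARCHF3 rose by 1.52 at 2 h and 1.38 at 10 h, and the adaptor NCK1 by 0.97 and 0.74. Over all 112, the highest knockdown mean was at 4 h for 65 members, at 2 h for 35, at 8 h for 7 and at 10 h for 5.

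How the level at 10 h compared with that at 2 h differed among the members. In knockdown 12 (10.7%) were higher at 10 h than at 2 h and 68 (60.7%) lower. The backgrounds were 18.2% higher and 15.1% lower, so the share of members higher was under its background. The median over all probe sets was 0.01. For the transient genes 0 of 102 were higher, also at an unadjusted p under 0.05, and all 102 were lower. Their median was -1.30 against -0.44 for members, but the sets had been split on the 10 h share of the 2 h rise in control arrays. The 12 were MMP1 (1.63 ± 0.22), the pattern receptor CLEC4E (1.07), ASS1 (0.90), the Notch ligand DLL4 (0.84), MMP10 (0.68), LAMB3 (0.66), GBP3 (0.64), NIBAN1 (0.63), the carbonic anhydrase-related CA8 (0.55), C6orf58 (0.46), the protease TLL1 (0.38) and the adipokine relative C1QTNF1 (0.37). Of the matrix and proteolysis genes 4 of 9 were among them and 2 were lower. BCL2A1 (-1.77 ± 0.14), STAT5A (-1.59 ± 0.09), RASGRP1 (-1.40), G0S2 (-1.35) and HIVEP2 (-1.22) were lowest. TLL1 lost its call without knockdown 2 h replicate 4 or knockdown 10 h replicate 1 or 2, with an adjusted p of up to 0.138.

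**Figure D2:**
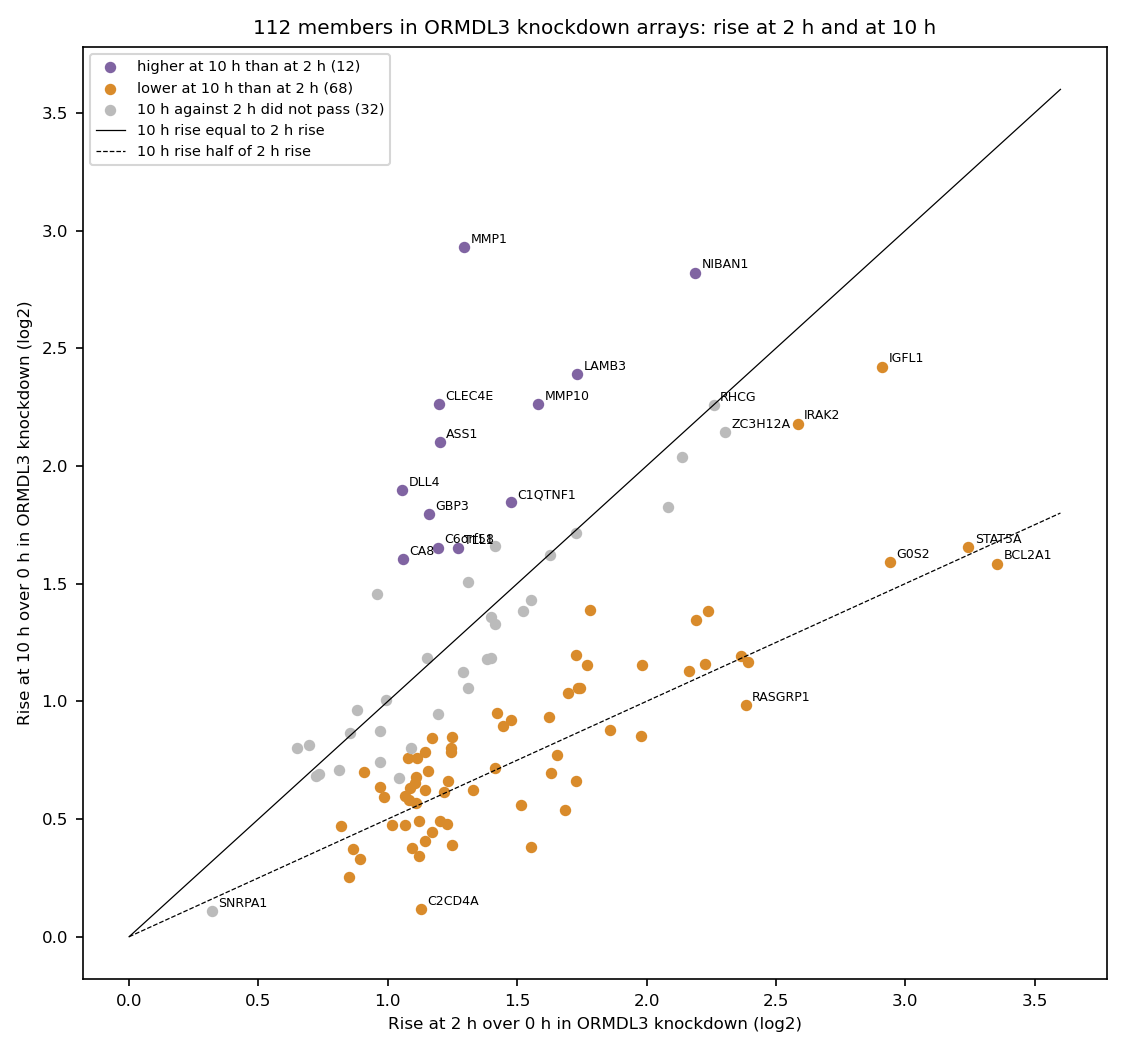
Rise over 0 h at 2 h (horizontal) and at 10 h (vertical) on the log2 scale for the 112 members in knockdown arrays, coloured by the test of 10 h against 2 h. Both axes share the 0 h arrays. Above the solid line of equal rises lie 21 members, MMP1 farthest, of which 12 were called higher at 10 h. BCL2A1 and STAT5A lie near the dashed line of 0.5 of the 2 h rise.

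Between 4 and 8 h most members came down in both arms, in groups that had no part in the choice. In knockdown 78 members were lower at 8 h than at 4 h and 3 higher (background 12.7% lower, 9.8% higher), and in controls 69 were lower and 3 higher (background 10.6% and 10.5%). The median change was -0.47 in knockdown and -0.43 in controls, while that of all probe sets was 0.00 and 0.02. The members lower in both arms numbered 67. RASGRP1 fell by 2.11 in knockdown and by 1.83 in controls, and RNF144B, a ubiquitin ligase, by 1.44 and 1.33. FAM43A, a gene of little-known function, was higher at 8 h than at 4 h in both arms, by 0.71 in knockdown and 0.62 in controls. Its knockdown arrays were at 8.24, 8.29, 8.11 and 8.43 at 8 h and 7.46, 7.38, 7.67 and 7.72 at 4 h, without overlap. In knockdown EFNA1 (0.38, adjusted p = 0.027) and SOCS3 (0.21, adjusted p = 0.0463) were higher too, and in controls DLL4 (0.66) and ASS1 (0.40). The calls of EFNA1 and SOCS3 were lost in 5 and 7 of 8 fits without 1 array, with adjusted p of up to 0.1 and 0.145. DLL4 did not pass between 4 and 8 h in knockdown (0.36, adjusted p = 0.0769). It was at 7.25, 7.26 and 7.64 at 0 h in knockdown and at 8.32, 8.34, 8.35 and 8.76 at 2 h. By 4 h it was at 8.93, 8.87, 8.78 and 9.04, then 9.35, 9.17, 9.23 and 9.33 at 8 h. The change from 4 to 8 h was then compared between the arms, and limma called 0 of 112 members and 0 of all probe sets (background 0.0%). At an unadjusted p under 0.05, 4 members were higher and 6 lower. The widest differences were SNRPA1 (-0.75), IFIH1 (-0.61), MMP1 (-0.59) and SGPP2 (-0.56), each with an adjusted p of 1.

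Knockdown was compared with control at 4 and 8 h, the hours with IL1B at which no array of either arm had chosen the members. The choice still asked for a rise in controls alone. In knockdown 93 of the 112 had a rise of 1 or more at 2 h, and genes that reached 1 only in knockdown could not enter. This can tilt the counts below towards lower in knockdown, and by how much was not tested. For the mean of the 2 hours 21 members were lower in knockdown and 3 higher, against backgrounds of 4.03% and 4.59% of all probe sets. The differences were small, with a median size of 0.35 among the 24. The median over all 112 was -0.10, against -0.01 for all probe sets, and 76 members were below 0. Of the 102 transient genes 19 were lower and 7 higher; the lower ones are 18.6% against 18.8% of members, and no difference between the sets was tested. Of the 24 calls 18 held in each of 15 fits that left out 1 array, and without control 4 h replicate 4 the number higher was 5.

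IRAK3 had the largest difference. At 4 h it was at 6.05, 6.05, 6.57 and 6.07 in knockdown and 6.91, 6.96, 7.01 and 6.50 in controls, and at 8 h at 4.93, 5.19, 5.70 and 5.24 in knockdown and 6.00, 5.97 and 6.03 in controls. The 4 h groups overlap by 1 knockdown array, and at 8 h every knockdown array was below every control array. The mean difference was -0.70 ± 0.13 (limma adjusted p = 0.000472). IRAK2 differed by less but more evenly: 11.15, 11.26, 11.25 and 11.26 in knockdown against 11.54, 11.57, 11.55 and 11.68 in controls at 4 h, and 10.72, 10.81, 10.81 and 10.78 against 11.10, 11.24 and 11.08 at 8 h. There was no overlap at either hour, and the mean difference was -0.36 ± 0.05 (adjusted p = 3.55e-06). ZC3H12C, a relative of ZC3H12A, was lower (-0.30), while ZC3H12A (-0.14), CYLD (0.01), IKBKE (-0.05) and DUSP10 (-0.04) did not pass. Of the 43 pathway genes that are no members 6 were lower and 0 higher (background 4.03% and 4.59%). The 6 were N4BP1 (-0.37), TIFA (-0.33), TNIP3 (-0.31), NFKBID (-0.30), MAP3K8 (-0.28) and NFKBIB (-0.13). Among other lists, 7 of 33 interferon-stimulated effectors, all outside the members, were lower and 0 higher. Of 46 transcription and chromatin regulators that are no members 1 was lower and 3 were higher.

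EFNA1 was at 9.47, 9.81, 9.46 and 9.36 in knockdown and 10.24, 10.32, 10.29 and 9.99 in controls at 4 h, and at 9.96, 10.09, 9.86 and 9.69 against 10.15, 10.34 and 10.27 at 8 h. Knockdown arrays were below control arrays at both hours, with a gap that was narrow at 8 h. The mean difference was -0.52 ± 0.09 (adjusted p = 0.000299). SNAPC1 was at 10.02, 9.81, 9.74 and 9.78 in knockdown and 10.45, 10.59, 10.57 and 10.20 in controls at 4 h, again without overlap, and differed by -0.56 ± 0.08 over both hours (adjusted p = 2.35e-05). IGFL1 was at 8.60, 8.61, 8.16 and 8.41 in knockdown and 8.59, 8.99, 8.92 and 9.08 in controls at 4 h, which overlap, and at 8.58, 8.32, 8.40 and 8.31 against 8.74, 8.96 and 8.94 at 8 h, which do not. It differed by -0.46 ± 0.09. JAK2, the kinase of many cytokine receptors, was at 7.45, 7.55, 7.12 and 7.35 in knockdown and 8.00, 7.78 and 7.90 in controls at 8 h, and its mean difference was -0.46 ± 0.10. Also lower were NPHS1 (-0.38), known from kidney podocytes, the receptor-like LRP12 (-0.35), G0S2 (-0.35), ASS1 (-0.34), GBP3 (-0.32), RASGRP1 (-0.31), the antiproliferative BTG3 (-0.30) and CSF1 (-0.19). CLEC4E (-0.49, adjusted p = 0.0716) did not pass, but was called lower without control 4 h replicate 4 or knockdown 8 h replicate 2 (adjusted p down to 0.0262). On the higher side the collagen chain COL4A1 (0.29, adjusted p = 0.0558) did not pass either. It was called higher without control 4 h replicate 4, knockdown 4 h replicate 1 or knockdown 8 h replicate 1 (adjusted p down to 0.0129). SH2D1B, PLAU, CLIC4, DRAM1 and OGFRL1 were lower and AMPD3 higher, but their calls were lost in 7, 1, 1, 6, 12 and 10 of 15 fits without 1 array. The fit without control 8 h replicate 2 gave PLAU an adjusted p of 0.0511, the fit without control 8 h replicate 1 gave CLIC4 one of 0.0595, and the highest adjusted p was 0.114 for SH2D1B, 0.102 for DRAM1, 0.0902 for OGFRL1 and 0.101 for AMPD3.

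SGPP2 and SPHK1 are described together after their values were seen, since both act on sphingosine 1-phosphate, a lipid mediator made from sphingolipids; no list of such enzymes was counted. SGPP2, a phosphatase that removes its phosphate and whose promoter holds both motifs, was at 8.22, 8.34, 7.99 and 7.75 in knockdown and 8.76, 8.93 and 8.79 in controls at 8 h. All knockdown arrays were below all control arrays there, while at 4 h, with 8.97, 9.10, 8.98 and 8.65 against 9.25, 9.38, 9.06 and 8.78, the groups overlap. The mean difference of SGPP2 was -0.47 ± 0.11 (adjusted p = 0.00558). SPHK1, the kinase that adds the phosphate, was at 8.53, 8.44, 8.16 and 8.52 in knockdown and 7.87, 7.82, 7.72 and 8.03 in controls at 4 h, without overlap, and at 8.13, 8.14, 8.44 and 8.57 against 8.14, 7.77 and 8.14 at 8 h, with overlap. Its mean difference was 0.43 ± 0.09 (adjusted p = 0.00263). UGCG, which makes glucosylceramide from ceramide, was at -0.26 and did not pass. FAM43A, at 8.24, 8.29, 8.11 and 8.43 in knockdown and 7.83, 7.90 and 7.90 in controls at 8 h, was higher by 0.35 ± 0.07 for the mean (adjusted p = 0.00234), with no overlap at 8 h.

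**Figure D3:**
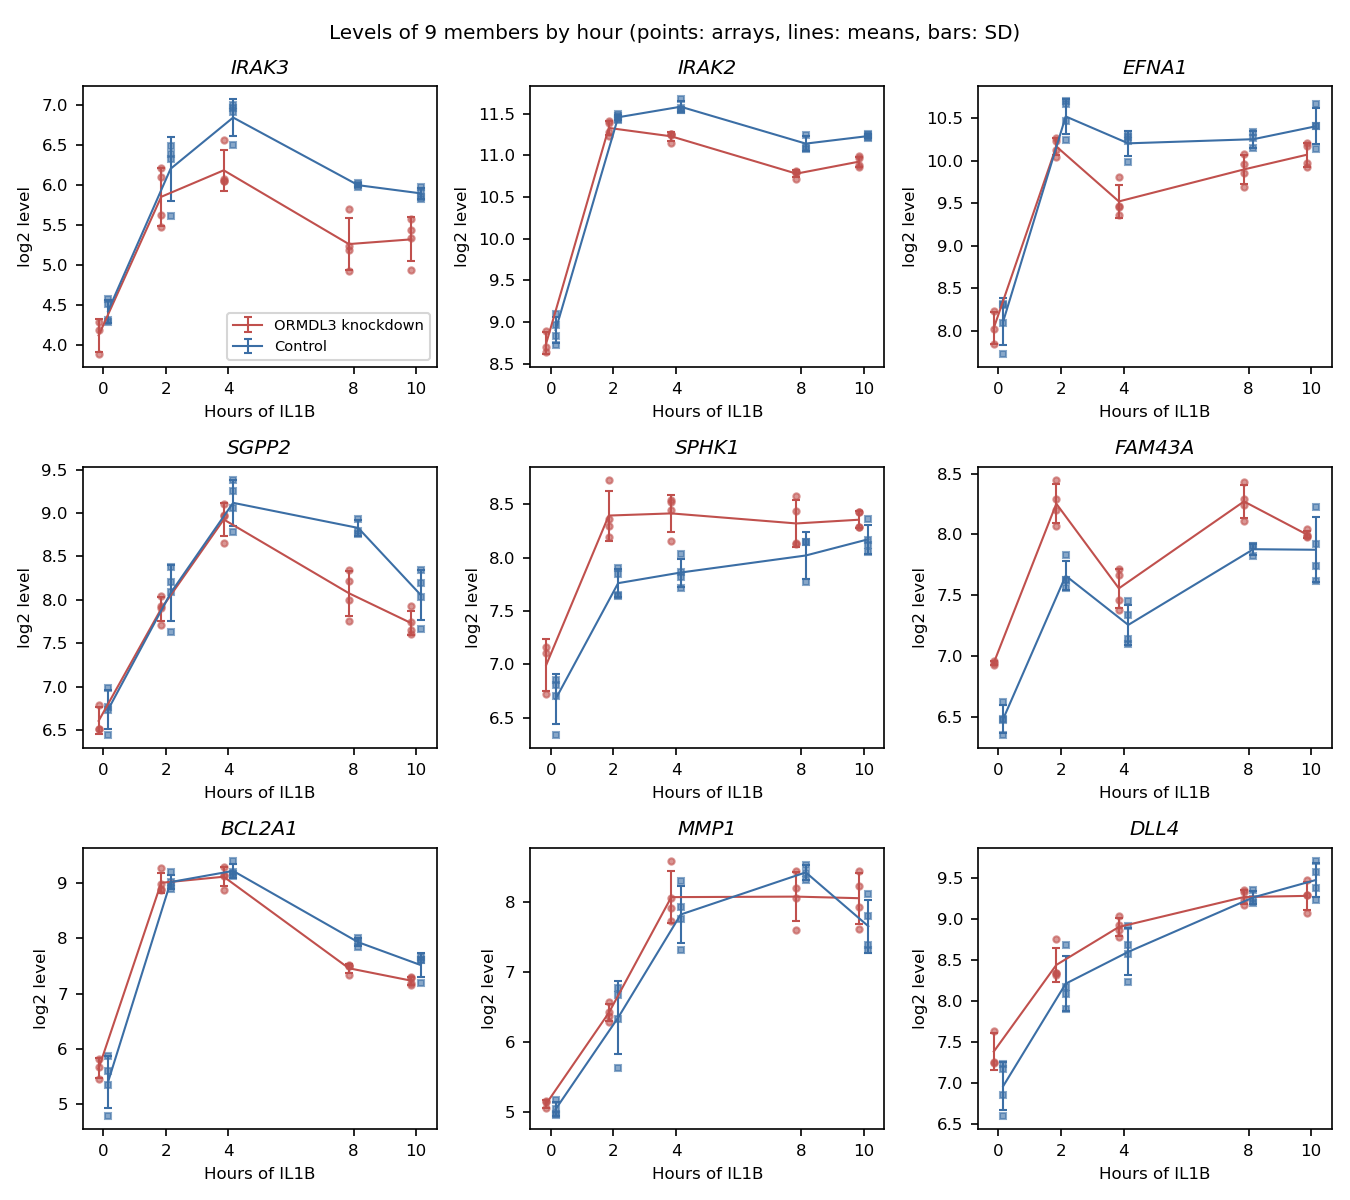
Log2 level of 9 members by hours of IL1B, knockdown in red and control in blue, with points for arrays, lines through group means and bars for the SD (n = 4, or 3 at knockdown 0 h and control 8 h). The means of IRAK3, IRAK2 and EFNA1 are lower in knockdown at every hour, by more at 4 h than at 0 or 2 h, SGPP2 separates most at 8 h, SPHK1 and FAM43A are higher in knockdown, and MMP1 and DLL4 stand higher at 4 h than at 2 h in both arms, while BCL2A1 is lower at 8 and 10 h than at 2 and 4 h.

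Each hour on its own gave fewer calls: 4 h had 6 members lower and 1 higher in knockdown (background 0.732% lower, 1.11% higher), and 8 h had 12 lower and 1 higher (background 1.26% and 1.62%). The single gene called higher was SPHK1 at 4 h (0.55) and FAM43A at 8 h (0.39). IRAK2, IRAK3, SNAPC1 and IGFL1 were lower at both hours. SGPP2 (-0.75 ± 0.16, adjusted p = 0.00852) was lower at 8 h, with an adjusted p of 0.0516 without knockdown 8 h replicate 4. In every fit without 1 array EFNA1, IRAK2 and SNAPC1 stayed called at 4 h, and IRAK2 and LRP12 at 8 h. The calls of IRAK3 were lost in 6 of 8 such fits at 4 h and 6 of 7 at 8 h, and those of IGFL1 in 5 at either hour. SPHK1 was lost at 4 h without knockdown 4 h replicate 4 or control 4 h replicate 3 (adjusted p of up to 0.0652), and FAM43A at 8 h in 6 of 7 fits (up to 0.172). The 6 at 4 h became 3 without knockdown 4 h replicate 4 or control 4 h replicate 2 or 3. The 12 at 8 h became 5 without knockdown 8 h replicate 4 or control 8 h replicate 1 or 2, and 4 without control 8 h replicate 3; with only the groups compared in the fit, the counts of lower members were 2 at 4 h and 0 at 8 h. Knockdown arrays lay entirely below control arrays for 13 members at 4 h and 33 at 8 h (background 2.68% and 8.39%), and entirely above for 3 at each hour (background 3.35% and 6.16%). At 8 h knockdown had an array numbered 4 and control had not. With all arrays numbered 4 left out, the members called lower at 8 h again numbered 12. The part of this imbalance in the gaps between arrays at 8 h was not tested.

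**Figure D4:**
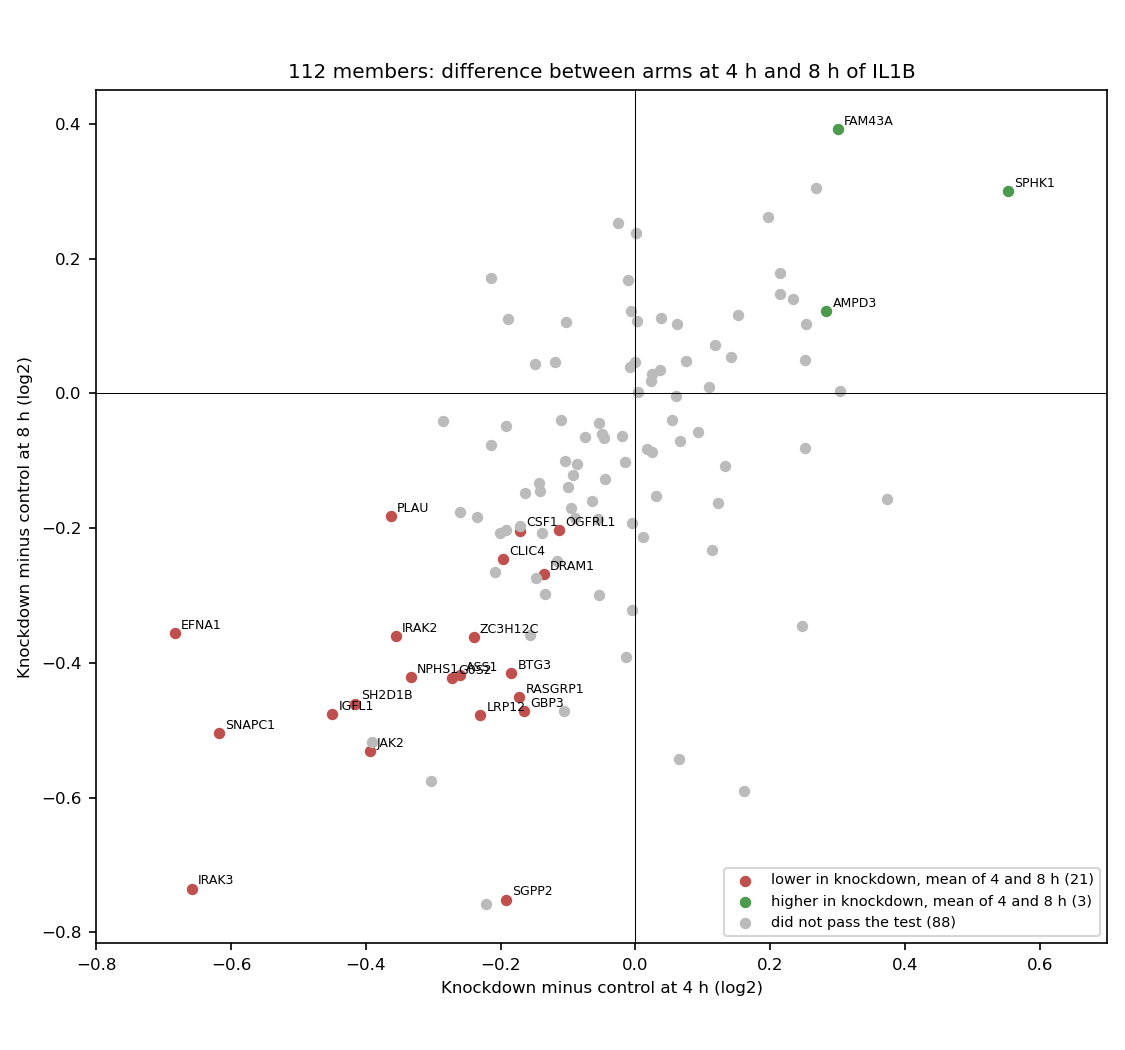
Knockdown minus control on the log2 scale at 4 h (horizontal) and at 8 h (vertical) for the 112 members, coloured by the test on the mean of both hours. The 21 members that were lower lie below 0 on both axes, with IRAK3, SNAPC1, EFNA1 and SGPP2 farthest out, and SPHK1, FAM43A and AMPD3 lie in the upper right.

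At 0, 2 and 10 h control arrays had chosen the members, so the difference between the arms is given there without a test. Before IL1B the members were slightly higher in knockdown, with a median of 0.17 and 86 of 112 above 0, against a median of 0.01 over all probe sets. The median was 0.05 at 2 h, -0.06 at 4 h, -0.13 at 8 h and -0.09 at 10 h, with 66, 40, 34 and 31 members above 0. The mean level over all members in knockdown was 7.67 ± 0.05 at 0 h, 9.11 ± 0.04 at 2 h, 9.29 ± 0.01 at 4 h, 8.77 ± 0.06 at 8 h and 8.74 ± 0.04 at 10 h (SD over arrays). Of the 21 members that were lower for the mean of 4 and 8 h, 16 were below 0 at 2, 4, 8 and 10 h and 12 were below 0 at 0 h. IRAK3 was at 4.19, 4.29 and 3.89 in knockdown and 4.52, 4.30, 4.58 and 4.32 in controls at 0 h, which do not overlap. FAM43A was at 6.94, 6.93 and 6.96 in knockdown and 6.48, 6.35, 6.63 and 6.48 in controls at 0 h, so its arms were apart before IL1B. SPHK1, at 7.10, 6.72 and 7.16 in knockdown and 6.85, 6.34, 6.71 and 6.80 in controls, overlapped at 0 h. COL4A1 (0.54) and AMPD3 (0.31) were already higher in knockdown at 0 h and CSF1 (-0.26) already lower, each without overlap. PLAU, lower for the mean of 4 and 8 h, was higher at 0 h (0.39), also without overlap.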

How the data were processed

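RNA from A549 cells was hybridised to 38 Affymetrix arrays. The deposited values were log2 levels per probe set. Per the submitters' processing notes, RMA and Affymetrix Power Tools were among the tools used, beside limma 3.22.7 and the build hg19; their roles are not stated. Values covered 14488 probe sets (12132 with 1 gene symbol, 628 with several, 1728 with none), and array medians lay between 8.02 and 8.19. No further normalization, detection filter or floor was applied, and the sources used here do not say how the authors chose the probe sets. Where a gene had several probe sets, the one with the highest overall mean stood for it (2 of 112 members). A gene's symbol came from the platform annotation, updated by Entrez identifier for 12121 probe sets.

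A linear model with 1 mean per group was fitted to all 38 arrays with limma 3.58.1 in R 4.3.3, with empirical Bayes moderation and no block. It was tested on simulated data. Benjamini-Hochberg adjustment ran over all 14488 probe sets, a member is called at an adjusted p under 0.05, and errors of differences are limma's standard errors. Only contrasts that the control arrays at 0, 2 and 10 h do not enter were tested. P-values measure the spread between these arrays, which may be technical, and precision is limited by how many arrays there are. The members, role groups, pathway list, other gene lists and tests were chosen with earlier results of these data known. Genes named are the highest and lowest of each contrast, those at the thresholds, the leading genes of each role group, those whose promoter is printed, and up to 6 other pathway genes; further members named were chosen after their values were seen. Alternatives were a replicate block, a variance trend, leaving out dim probe sets, quantile and median scaling, array weights, leaving out arrays, fitting only the groups compared, and the other probe set of a gene.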

Additional observations from a re-analysis of the deposited data

Results flagged for a closer look

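Over 20 members and 8 groups of 4 arrays, 160 gene and group pairs were looked at for 1 array that stood apart, by the gap to its nearest neighbour over the range of the group, past Dixon's critical value, and 5 were found; chance gives about 1 in 20 pairs. IRAK3 was high in knockdown 4 h replicate 3, at 6.57 against 6.05 to 6.07 in the others. DLL4 was high in knockdown 2 h replicate 4, at 8.76 against 8.32 to 8.35. BCL2A1 was low in knockdown 8 h replicate 2, at 7.34 against 7.49 to 7.51, and in control 10 h replicate 4, at 7.19 against 7.61 to 7.66. IRAK2 was low in knockdown 4 h replicate 1, at 11.15 against 11.25 to 11.26.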

How the results depend on the processing

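No result changed direction under the alternatives run. With the replicate number as a fixed block, the counts of members were 5 higher from 4 to 8 h in controls and 6 in knockdown, 4 higher and 11 lower in knockdown than in control at 4 h, 18 lower at 8 h, and 5 higher for the mean of 4 and 8 h; the other counts moved by less than 1.5 times. Same-numbered arrays were on average more alike than others, though not in every pair. Of 162 same-numbered pairs 107 correlated over 0.1, with a median of 0.177 (-0.056 for different numbers) and a lowest value of -0.286. Between arrays numbered 4 the lowest value was 0.031 and the median 0.32. By average correlation, 28 of 38 arrays were closest to their own number. The main fit had no block and so leaves this likeness out. CLEC4E was called lower for the mean of 4 and 8 h with the replicate block, with array weights, without the arrays numbered 4 and with only the groups compared. COL4A1 was called higher for that mean with the replicate block, with array medians subtracted, with array weights and without the arrays numbered 4. Without dim probe sets 70 members were left, so that 70, 70, 69 and 68 rose at 2, 4, 8 and 10 h in knockdown, 5 were higher at 10 h than at 2 h, 51 were lower at 8 h than at 4 h, and 0, 0 and 1 were higher in knockdown than in control at 4 h, at 8 h and for their mean. Quantile normalization gave 5 members higher from 4 to 8 h in knockdown, and subtracting array medians gave 2 higher in knockdown than in control at 8 h and 5 for the mean. Without the arrays numbered 4 these were 5 higher from 4 to 8 h in knockdown and 0 higher than control at 8 h. With only the groups compared, the counts against control were 0 higher and 2 lower at 4 h and 0 higher and 0 lower at 8 h. Leaving out 1 array gave ranges of 3 to 6 lower and 0 to 2 higher at 4 h, 4 to 11 lower and 0 to 2 higher at 8 h, 18 to 27 lower and 2 to 5 higher for the mean, 1 to 3 higher from 4 to 8 h in knockdown, and 0 to 1 lower at 8 h against 0 h in knockdown. The cause was not tested. No detection values were used, so what dim probe sets can show is limited.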
